A study of Mus musculus with 18 samples.

Results

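The 9 growth factor genes described here are Igf1, Pdgfa, Pdgfb, Hgf, Vegfa, Vegfb, Hbegf, Bdnf and Tgfa, which microglia have been described to make. They were chosen by symbol, and each matched 1 of the 39017 genes counted in the series. The RNA came from spinal cord and is labelled as microglial, microglia being the macrophages that reside in the brain and spinal cord. The 18 libraries form 3 groups of 6. Metformin EAE libraries came from mice with experimental autoimmune encephalomyelitis (EAE) given metformin, control EAE libraries from mice with EAE and control treatment, and healthy libraries from mice without EAE and with control treatment. EAE is an autoimmune model of multiple sclerosis in which immune cells enter the spinal cord and myelin is lost, and metformin is a widely used oral drug for diabetes. All mice were female, were labelled WT and carried Tmem119-Cre:RiboTag, in which the promoter of the microglial gene Tmem119 drives Cre and Cre switches on an epitope tag on ribosomes. Total RNA is the molecule given in the labels, which mention no capture of tagged ribosomes and no age, dose or time. Whether the libraries of a group came from different animals is not stated, so the p-values rest on a spread between libraries that may be technical.

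Growth factors are secreted or membrane-bound proteins that bind receptor tyrosine kinases on neighbouring cells. Igf1 signals through Igf1r and is held in the tissue by a family of binding proteins. Pdgfa drives division of oligodendrocyte precursors through Pdgfra, while Pdgfb acts on mural cells of blood vessels through Pdgfrb. Hgf is made as an inactive precursor, is activated by serine proteases and binds Met. Vegfa and Vegfb both bind Flt1, and Vegfa also drives vessel growth and is a classic target of the hypoxia-inducible transcription factor Hif1a. Hbegf and Tgfa are made as membrane-anchored precursors that Adam17 and related proteases release, and both act on the epidermal growth factor receptor. Bdnf supports neurons through Ntrk2.

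Levels are given as scaled CPM, the deposited read counts over library totals in M that were adjusted with TMM factors. Library totals were 46.2 to 58.3 M counts (M, mega). Changes are log2 changes from edgeR's quasi-likelihood F test across 16740 genes, and a gene was called at a Benjamini-Hochberg adjusted p under 0.05. Changes are given with their standard error (SE), and group means with their SD (n = 6 each). Of 8 microglia markers, Aif1 was at 0 in all libraries, and the other 7 were counted in every library. The summed level of these markers was 7896 to 17425 scaled CPM in metformin EAE libraries, 4267 to 7167 in control EAE libraries and 17287 to 19661 in healthy libraries. Markers of other cells were present too. In bulk RNA, fewer cells of a type and less RNA per cell cannot be told apart.

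Some libraries stood apart from their groups. Metformin EAE replicate 22 had the highest microglia marker sum of its group (17425, against 7896 to 12493 in the other 5), and its Apoe was at 7078 scaled CPM, against 65118 to 97192 in the others and 1825 to 5107 in healthy libraries. Its sum of border macrophage markers was 3.59, against 22.7 to 46.3 in the other metformin EAE libraries. Among healthy libraries, replicates 3 and 4 had P2ry12, a microglial purine receptor, at 403 and 461 scaled CPM, against 668 to 790 in the other 4. Calls of named genes that change without replicate 22, or without healthy replicates 3 and 4, are given beside the result.

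Promoter sequence is shown for Igf1, which had the largest change of the 9, and for Pdgfa, Vegfa and Vegfb, which were called both in control EAE against healthy and in metformin EAE against control EAE. Each is the 250 bases before a RefSeq start, from the table of build GRCm38.p6, on the strand of the gene. The motifs searched on both strands were the hypoxia response element core ACGTG or GCGTG, the AP-1 motif TGANTCA and the PU.1 motif AGGAAGT, and matches are in capitals (CACGT or CACGC is a hypoxia core read on the other strand). ACGTG is also part of the E-box CACGTG. Over 32851 windows of the same length, 38.6% held a hypoxia core, 6.75% the AP-1 motif and 7.69% the PU.1 motif.
Igf1, chr10:87860861-87861110, plus strand: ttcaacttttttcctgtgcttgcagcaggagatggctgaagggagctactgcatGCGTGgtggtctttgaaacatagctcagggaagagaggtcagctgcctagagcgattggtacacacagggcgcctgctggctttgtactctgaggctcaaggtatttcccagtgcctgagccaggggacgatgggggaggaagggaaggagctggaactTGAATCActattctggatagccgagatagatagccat
Pdgfa, chr5:138994945-138995194, minus strand: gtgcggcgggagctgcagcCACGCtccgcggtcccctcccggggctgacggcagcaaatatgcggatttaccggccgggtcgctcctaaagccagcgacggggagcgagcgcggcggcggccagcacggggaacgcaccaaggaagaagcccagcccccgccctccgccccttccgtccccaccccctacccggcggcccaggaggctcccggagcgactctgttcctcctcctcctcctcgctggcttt
Vegfa, chr17:46032378-46032627, minus strand: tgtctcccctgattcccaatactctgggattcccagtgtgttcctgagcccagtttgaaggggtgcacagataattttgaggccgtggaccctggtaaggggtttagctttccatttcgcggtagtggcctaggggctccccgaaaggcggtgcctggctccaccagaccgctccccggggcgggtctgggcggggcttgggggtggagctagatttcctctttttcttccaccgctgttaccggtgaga
Vegfb, chr19:6987652-6987901, minus strand: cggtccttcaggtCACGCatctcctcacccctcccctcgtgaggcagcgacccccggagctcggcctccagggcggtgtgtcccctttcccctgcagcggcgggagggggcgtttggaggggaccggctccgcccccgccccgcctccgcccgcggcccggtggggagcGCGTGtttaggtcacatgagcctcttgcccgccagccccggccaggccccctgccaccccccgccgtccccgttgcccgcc
The Igf1 window held 1 hypoxia core and 1 AP-1 match, the Pdgfa window 1 hypoxia core and the Vegfb window 2. The Vegfa window held none of the 3 motifs, which says only that these letters are not in it. Pdgfa and Vegfa each have 2 windows in the table, of which the one farther upstream is shown. The other Pdgfa window (chr5:138994282-138994531) held none of the motifs, and the other Vegfa window (chr17:46025164-46025413) held 2 hypoxia cores. This other Vegfa window, the Igf1 window and both Pdgfa windows lie within the span of the annotated gene, so they may hold transcribed sequence. A match describes letters and not a bound site. The table had 16 windows for 7 of the 9 genes, and none for Pdgfb and Hbegf.

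In control EAE against healthy libraries, 8 of the 9 growth factor genes were called, where 62.4% of all genes tested were called (31.7% higher and 30.7% lower). Igf1, Hgf, Pdgfa, Hbegf and Vegfb rose, while Vegfa, Pdgfb and Tgfa fell. Bdnf was not called. Hgf passed the filter on low counts only through the EAE libraries, so its calls are no support for the counts of calls against healthy libraries. In metformin EAE against control EAE, 3 of 9 were called, where the share over all genes was 24.6% (12.5% higher and 12.1% lower): Vegfa rose, and Pdgfa and Vegfb fell. Leaving out metformin EAE replicate 22 also gave 3 calls, Vegfa higher and Pdgfa and Igf1 lower, with 18.3% of all genes called. Metformin EAE against healthy gave 4 calls among the 9, with 36.6% of all genes called (20.3% higher and 16.3% lower): Igf1, Hgf and Pdgfa higher and Pdgfb lower. With replicate 22 left out it gave 6, with 46.3% of all genes, as Vegfa and Tgfa were then also lower. Leaving out healthy replicates 3 and 4 gave 7 calls in control EAE against healthy, where 58.1% of all genes were called and Hbegf was lost, and 5 in metformin EAE against healthy, where 30.5% were called and Vegfa was gained. The comparisons share libraries, and metformin EAE and healthy libraries are each set against the same control EAE libraries. Over all genes tested, the calls split into 5314 higher and 5138 lower in control EAE against healthy and into 2087 higher and 2024 lower in metformin EAE against control EAE. With library totals alone in place of TMM the splits were 2604 higher and 8649 lower, and 4712 higher and 616 lower, since that scaling moved the median of all genes by -0.42 and 0.23 on the log2 scale. Among the 9 growth factor genes it gave 3 higher and 3 lower in control EAE against healthy, and 3 higher and 0 lower in metformin EAE against control EAE (Vegfa, Pdgfb and Tgfa).

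**Figure D1:**
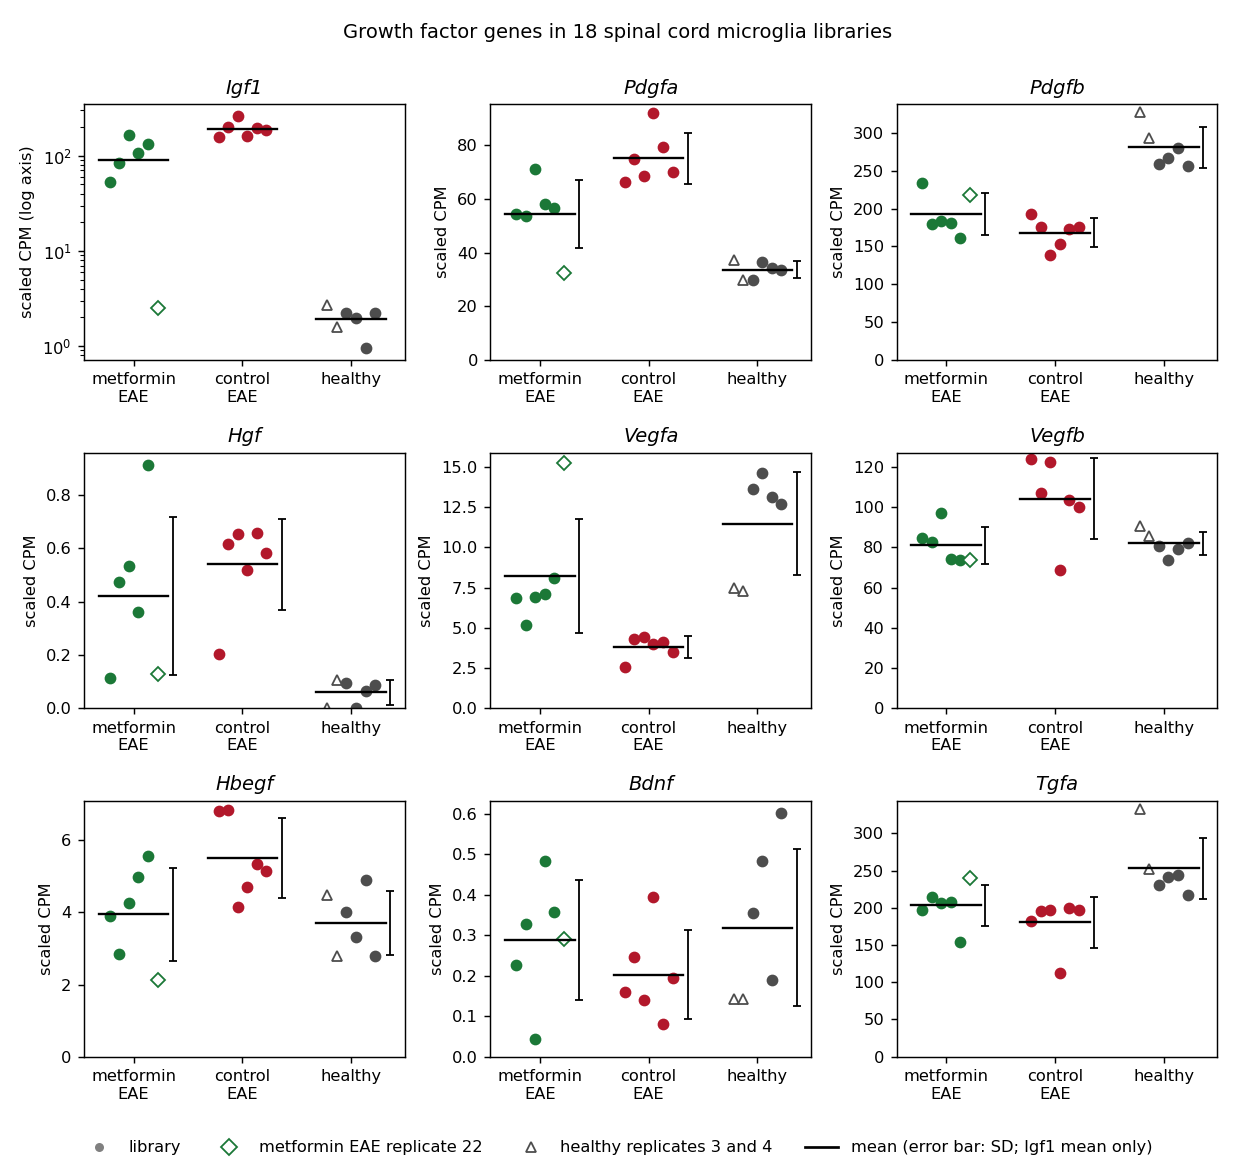
Scaled CPM of each growth factor gene in every library of the metformin EAE, control EAE and healthy groups, with the mean as a line and the SD as a bar (Igf1 on a log axis, without SD). Open symbols are metformin EAE replicate 22 and healthy replicates 3 and 4; Igf1 in replicate 22 lies at 2.54 scaled CPM, within the healthy range.

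Igf1 was the growth factor with the largest rise in EAE. It (ENSMUSG00000020053) lies at chr10:87858265-87937042 on the plus strand (mm10) and had 2.54, 95.2 and 167 scaled CPM as its lowest, median and highest value in metformin EAE libraries, 157, 190 and 261 in control EAE libraries and 0.950, 2.11 and 2.68 in healthy libraries. Control EAE and healthy libraries did not overlap. The means were 90.8 ± 58.3, 193 ± 37.6 and 1.95 ± 0.605 scaled CPM in the metformin EAE, control EAE and healthy libraries. Igf1 was 99.3-fold higher in control EAE than in healthy libraries (log2 change 6.63 ± 0.67, adjusted p = 5.54e-07), the change of rank 54 of 16740 from the top. Igf1 was 46.7-fold higher in metformin EAE than in healthy libraries (log2 5.54 ± 0.64, adjusted p = 1.27e-05).

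The large spread of Igf1 among metformin EAE libraries came from replicate 22, whose 2.54 scaled CPM lay within the healthy range, while the other 5 had 53.1 to 167. All 6 metformin EAE libraries were below the control EAE median, and only replicate 13, at 167, was above the lowest control EAE library. The log2 change against control EAE was -1.09 ± 0.52 and was not called (adjusted p = 0.136). When replicate 22 was left out, the change was -0.83 ± 0.25 and was called (adjusted p = 0.0266). Leaving out any other single library gave no call (adjusted p up to 0.229). Against healthy libraries, leaving it out gave 5.80 ± 0.30 (adjusted p = 1.05e-10).

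Markers of other macrophages rose with Igf1 in control EAE against healthy libraries. Of 7 border macrophage markers, all 4 that passed the filter on low counts were called higher in control EAE than in healthy libraries, and Pf4 was at 0 in every library. Their sum was 3.59 to 46.3 scaled CPM in metformin EAE libraries (22.7 to 46.3 without replicate 22), 53.7 to 107 in control EAE libraries and 0.808 to 2.43 in healthy libraries. Monocyte-derived cell markers had 4 of 6 called higher in control EAE, with sums of 13.6 to 545 scaled CPM in metformin EAE libraries (176 to 545 without replicate 22), 246 to 528 in control EAE libraries and 4.58 to 12.3 in healthy libraries. Microglia markers went the other way, with 7 of 7 called lower in control EAE than in healthy and 6 of 7 higher in metformin EAE than in control EAE. In that second comparison, 1 of 4 border macrophage and 1 of 6 monocyte-derived cell markers were called lower. The monocyte-derived cell sums of both EAE groups overlapped, also without replicate 22. Over all genes tested, 62.4% were called in control EAE against healthy and 24.6% in metformin EAE against control EAE. Border macrophage and monocyte-derived cell sums were low in healthy libraries, where 2 of 8 monocyte-derived cell markers were at 0 throughout. Markers of both lists may thus have passed the filter only through EAE libraries, which would fix their direction in advance. The part of these cells in the Igf1 result was not tested.

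**Figure D2:**
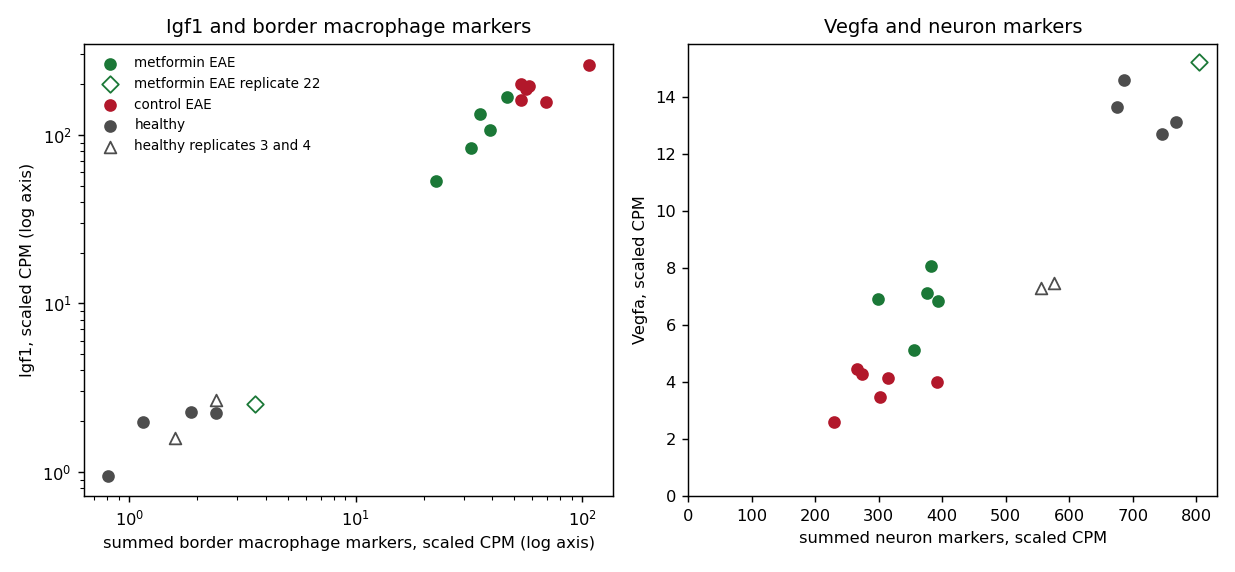
Left, Igf1 against the summed border macrophage markers, and right, Vegfa against the summed neuron markers, in scaled CPM with 1 point per library (log axes on the left). Metformin EAE replicate 22 lies near the healthy libraries in both panels, and healthy replicates 3 and 4 have the lowest Vegfa (7.49 and 7.29 scaled CPM) and neuron sums of their group.

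The platelet-derived growth factors moved in opposite directions in EAE. Pdgfa, the mitogen of oligodendrocyte precursors (ENSMUSG00000025856, chr5:138976014-138997370, minus strand), had 32.2, 55.6 and 71.4 scaled CPM as lowest, median and highest value in metformin EAE libraries, 66.5, 72.6 and 92.2 in control EAE libraries and 29.9, 33.9 and 37.4 in healthy libraries. Every control EAE library was above every healthy one. The means were 54.4 ± 12.6, 75.3 ± 9.52 and 33.6 ± 3.16 scaled CPM in the same order of groups. Pdgfa rose 2.24-fold in control EAE against healthy (log2 1.16 ± 0.13, adjusted p = 7.54e-07) and fell in metformin EAE against control EAE (log2 -0.47 ± 0.13, adjusted p = 0.0157).

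All 6 metformin EAE libraries had less Pdgfa than the control EAE median, and the groups overlapped through replicate 13 at 71.4. Replicate 22, at 32.2, lay within the healthy range, and without it the metformin EAE change against control EAE was -0.35 ± 0.10 (adjusted p = 0.0177). The call was lost when libraries were scaled by their totals alone (log2 -0.28, adjusted p = 0.0946) and when only the compared groups entered the fit (adjusted p = 0.0503). Against healthy libraries, Pdgfa was 1.62-fold higher in metformin EAE (log2 0.70 ± 0.13, adjusted p = 0.000511). Pdgfa shares 813 exonic bases with the antisense gene 6330403L08Rik on the opposite strand, and how strand was used in counting is not given in the sources used here. That gene averaged 24.8 ± 7.72 scaled CPM in control EAE and 42.1 ± 8.33 in healthy libraries (log2 -0.77 ± 0.18, adjusted p = 0.000895), the opposite direction to Pdgfa.

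Pdgfb, the ligand that recruits mural cells to vessels (ENSMUSG00000000489, chr15:79995874-80014977, minus strand), had 162, 182 and 234 scaled CPM as lowest, median and highest value in metformin EAE libraries, 138, 174 and 193 in control EAE libraries and 257, 274 and 329 in healthy libraries. No EAE library of either treatment reached the lowest healthy one. Pdgfb averaged 193 ± 27.2, 168 ± 19.3 and 281 ± 27.0 scaled CPM in the metformin EAE, control EAE and healthy libraries. It was 1.67-fold lower in control EAE than in healthy libraries (log2 -0.74 ± 0.10, adjusted p = 4.23e-06) and 1.46-fold lower in metformin EAE than in healthy libraries (log2 -0.54 ± 0.10, adjusted p = 0.000392). Between metformin EAE and control EAE the difference was 0.20 ± 0.10 and was not called (adjusted p = 0.152), although scaling by library totals alone gave 0.43 with a call (adjusted p = 0.00947).

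The vascular endothelial growth factors also split. Vegfa (ENSMUSG00000023951, chr17:46016993-46032369, minus strand) had 5.15, 7.02 and 15.2 scaled CPM as lowest, median and highest value in metformin EAE libraries, 2.59, 4.08 and 4.45 in control EAE libraries and 7.29, 12.9 and 14.6 in healthy libraries. Control EAE libraries were below all libraries of both other groups. The means were 8.22 ± 3.56, 3.83 ± 0.691 and 11.5 ± 3.23 scaled CPM in metformin EAE, control EAE and healthy libraries. Vegfa was 3.0-fold lower in control EAE than in healthy (log2 -1.58 ± 0.24, adjusted p = 1.23e-05). It was 2.15-fold higher in metformin EAE than in control EAE (log2 1.10 ± 0.24, adjusted p = 0.00353), the change of rank 451 of 16740 from the top and the only rise called among the 9 genes.

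Replicate 22 had the highest Vegfa of the metformin EAE group, at 15.2 scaled CPM against 5.15 to 8.06 in the other 5. With it left out, Vegfa was 1.78-fold higher in metformin EAE than in control EAE (log2 0.83 ± 0.19, adjusted p = 0.00635), and the groups still did not overlap. Against healthy libraries, the metformin EAE change of -0.48 ± 0.23 was not called (adjusted p = 0.108), but it was called without replicate 22 (-0.75 ± 0.19, adjusted p = 0.0028) and without healthy replicates 3 and 4 (-0.71 ± 0.23, adjusted p = 0.0233). Those 2 healthy libraries had 7.49 and 7.29 scaled CPM, against 12.7 to 14.6 in the other 4. Without them Vegfa in control EAE was 3.53-fold lower (log2 -1.82 ± 0.23, adjusted p = 8.18e-06).

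Neurons and astrocytes also make Vegfa, and their markers moved with it in part. All 10 neuron markers were called lower in control EAE than in healthy libraries, where 62.4% of all genes tested were called. In metformin EAE against control EAE, 2 of the 10 neuron markers were called higher, where 24.6% of all genes tested were called. Their sum was 298 to 805 scaled CPM in metformin EAE libraries (298 to 394 without replicate 22), 230 to 392 in control EAE libraries and 556 to 768 in healthy libraries. Astrocyte markers had 4 of 8 called lower and 2 of 8 higher in control EAE against healthy. Of the same 8, 2 were called higher and 1 lower in metformin EAE against control EAE. Their sums were 613 to 886 scaled CPM in metformin EAE libraries (613 to 756 without replicate 22). Control EAE libraries had 647 to 725 and healthy libraries 799 to 869. No marker of either list was at 0 in any library. Their part in the Vegfa result was not tested.

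Vegfb, a ligand of Flt1 (ENSMUSG00000024962, chr19:6982473-6987651, minus strand), had the smallest called changes of the family. Its lowest, median and highest values were 73.7, 78.5 and 97.3 scaled CPM in metformin EAE libraries, 68.7, 105 and 124 in control EAE libraries and 74.0, 81.4 and 90.7 in healthy libraries. Control EAE replicate 10 was at 68.7, below all others, while the other 5 control EAE libraries lay at 99.98 to 124, above every metformin EAE and healthy library. Vegfb averaged 81.1 ± 9.28, 104 ± 20.04 and 82.1 ± 5.66 scaled CPM in metformin EAE, control EAE and healthy libraries. It was 1.27-fold higher in control EAE than in healthy libraries (log2 0.35 ± 0.11, adjusted p = 0.0127), and scaling by library totals alone turned the sign (log2 -0.09, adjusted p = 0.392). It was lower in metformin EAE than in control EAE (log2 -0.36 ± 0.11, adjusted p = 0.026).

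That lower Vegfb in metformin EAE was not called when replicate 14, 21 or 22 of the metformin EAE group or replicate 1 or 9 of the control EAE group was left out, with adjusted p between 0.05 and 0.0664. It was also lost with library totals alone (log2 -0.13, adjusted p = 0.28) and with only the compared groups in the fit (adjusted p = 0.0702). Metformin EAE and healthy libraries overlapped throughout (log2 -0.02 ± 0.11, adjusted p = 0.918, 95% interval of the difference -0.24 to 0.21).

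**Figure D3:**
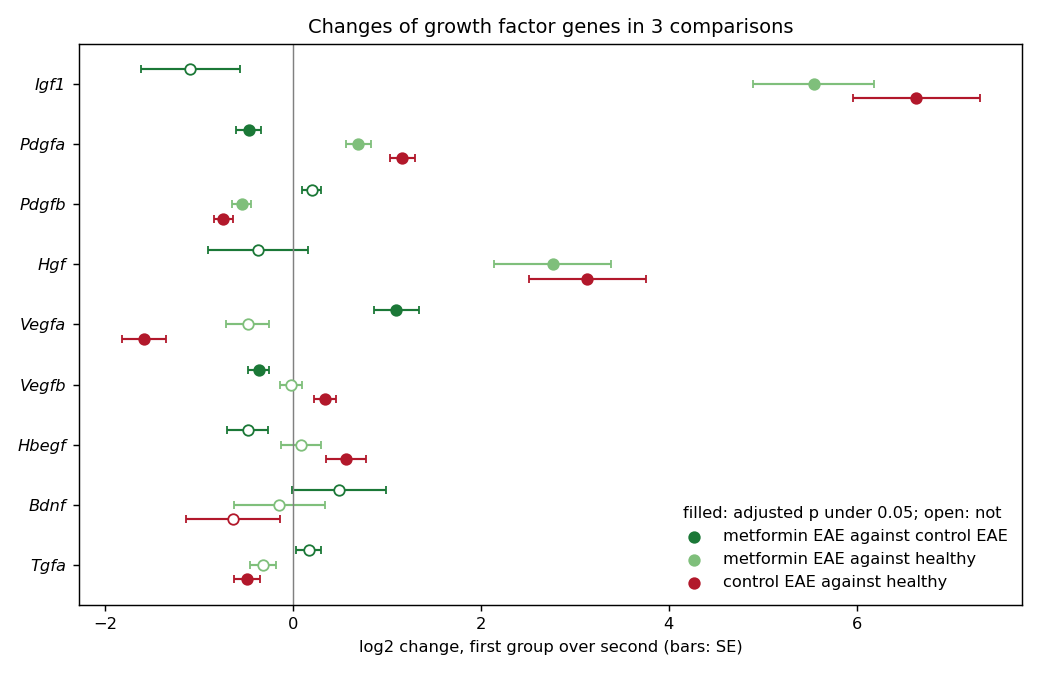
Log2 change of each growth factor gene in metformin EAE against control EAE, metformin EAE against healthy and control EAE against healthy, with SE bars and filled points for adjusted p under 0.05. Vegfa lies at 1.10 in metformin EAE against control EAE and at -1.58 in control EAE against healthy, and Igf1 and Hgf lie farthest to the right in the comparisons with healthy. Hgf passed the filter on low counts only through the EAE libraries.

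The ligands of the epidermal growth factor receptor differed in level and direction. Tgfa (ENSMUSG00000029999, chr6:86195223-86275719, plus strand) had 154, 207 and 239.6 scaled CPM as lowest, median and highest value in metformin EAE libraries, 112, 196 and 199.7 in control EAE libraries and 217, 243 and 332 in healthy libraries. All control EAE libraries were below all healthy ones. Tgfa averaged 203 ± 28.1, 181 ± 34.2 and 253 ± 40.7 scaled CPM in metformin EAE, control EAE and healthy libraries. It was 1.40-fold lower in control EAE than in healthy libraries (log2 -0.49 ± 0.14, adjusted p = 0.0041). The difference between metformin EAE and control EAE was not called (log2 0.17 ± 0.14, adjusted p = 0.377), except with library totals alone (log2 0.41, adjusted p = 0.0269). Against healthy libraries, the metformin EAE change of -0.32 ± 0.14 on the log2 scale missed the threshold (adjusted p = 0.0714), and it was called without metformin EAE replicate 22 (-0.37, adjusted p = 0.0345), without control EAE replicate 10 (-0.32, adjusted p = 0.0173), with library totals alone and with only the compared groups in the fit.

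Hbegf (ENSMUSG00000024486, chr18:36504927-36515805, minus strand) was far lower in level. It had 2.14, 4.08 and 5.57 scaled CPM as lowest, median and highest value in metformin EAE libraries, 4.15, 5.25 and 6.85 in control EAE libraries and 2.78, 3.66 and 4.89 in healthy libraries. The 3 groups overlapped, although all control EAE libraries were above the healthy median. Hbegf averaged 3.95 ± 1.29, 5.504 ± 1.11 and 3.71 ± 0.891 scaled CPM in metformin EAE, control EAE and healthy libraries. It was 1.48-fold higher in control EAE than in healthy libraries (log2 0.57 ± 0.21, adjusted p = 0.027). This call was lost when control EAE replicate 1 or 2 or healthy replicate 4, 12 or 20 was left out (adjusted p up to 0.0642), without healthy replicates 3 and 4 (adjusted p = 0.0606) and with library totals alone (log2 0.14, adjusted p = 0.55). Hbegf was not called in metformin EAE against control EAE (log2 -0.48 ± 0.21, adjusted p = 0.106) or against healthy (log2 0.09 ± 0.21, adjusted p = 0.777).

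Hgf and Bdnf were near the limit of detection. Hgf (ENSMUSG00000028864, chr5:16553495-16620152, plus strand) had 6 to 41 counts in metformin EAE libraries, 9 to 33 in control EAE libraries and 0 to 6 in healthy libraries, and it passed the filter only through the EAE libraries. Its lowest, median and highest values were 0.113, 0.419 and 0.913 scaled CPM in metformin EAE libraries, 0.204, 0.600 and 0.660 in control EAE libraries and 0, 0.0760 and 0.106 in healthy libraries. In scaled CPM, no healthy library reached the lowest EAE library of either treatment. In counts, however, metformin EAE replicate 5 and healthy replicates 4 and 11 were tied at 6. Hgf was 8.78-fold higher in control EAE than in healthy libraries (log2 3.13 ± 0.62, adjusted p = 0.000226) and 6.80-fold higher in metformin EAE than in healthy libraries (log2 2.77 ± 0.62, adjusted p = 0.00194). Since it had to be high in an EAE group to be tested, its call is no support for the count of calls. Metformin EAE and control EAE did not differ by a call (log2 -0.37 ± 0.53, adjusted p = 0.645, 95% interval of the difference -1.41 to 0.67).

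Bdnf (ENSMUSG00000048482, chr2:109674700-109727007, plus strand) had 2 to 24 counts in metformin EAE libraries, 4 to 22 in control EAE libraries and 8 to 34 in healthy libraries. Its lowest, median and highest values were 0.0427, 0.309 and 0.484 scaled CPM in metformin EAE libraries, 0.0800, 0.177 and 0.395 in control EAE libraries and 0.142, 0.272 and 0.603 in healthy libraries. The 3 groups overlapped, and no comparison was called. The log2 difference was -0.64 ± 0.50 in control EAE against healthy (adjusted p = 0.272, 95% interval -1.61 to 0.34) and 0.49 ± 0.50 in metformin EAE against control EAE (adjusted p = 0.50, 95% interval -0.49 to 1.48). At 2 to 34 counts per library these intervals were wide, and they still hold differences up to their bounds. In the annotation, 896 exonic bases of Bdnf, 484 of Hgf and 118 of Tgfa are shared with the genes Gm45346, Gm43489 and Gm43917. These genes were not among those counted in the series, so they could not be analysed. Whether reads from them were counted to Bdnf, Hgf or Tgfa is not known.

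Per kilobase of exon, the order of the 9 genes differed between groups. In metformin EAE libraries the order was Vegfb (50.5 scaled CPM per kb), Pdgfb (46.4), Tgfa (31.3), Pdgfa (17.5), Igf1 (9.17), Vegfa (1.92), Hbegf (0.817), Hgf (0.0586) and Bdnf (0.0463). Control EAE libraries had Vegfb (65.0), Pdgfb (40.4), Tgfa (27.8), Pdgfa (24.1), Igf1 (19.5), Hbegf (1.14), Vegfa (0.893), Hgf (0.0752) and Bdnf (0.0326). Healthy libraries had Pdgfb (67.5), Vegfb (51.1), Tgfa (39.0), Pdgfa (10.8), Vegfa (2.68), Hbegf (0.768), Igf1 (0.197), Bdnf (0.0513) and Hgf (0.00822). Igf1 stood beside Pdgfa in control EAE libraries and beside Bdnf in healthy ones, and the library ranges of each pair overlapped.

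Other neighbours in the order also overlapped. In metformin EAE libraries these were Vegfb and Pdgfb, Pdgfa and Igf1, Igf1 and Vegfa, and Hgf and Bdnf. Without replicate 22, Igf1 (5.37 to 16.9 scaled CPM per kb) overlapped neither Pdgfa (17.2 to 22.9) nor Vegfa (1.201 to 1.88). In control EAE libraries they were Vegfb and Pdgfb, Tgfa and Pdgfa, Hbegf and Vegfa, and Hgf and Bdnf. In healthy libraries Vegfb and Tgfa overlapped as well. With the longest transcript as the length in place of all exons, Pdgfb (65.6) and Vegfb (63.3) changed places in metformin EAE libraries, and no other order changed.

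**Figure D4:**
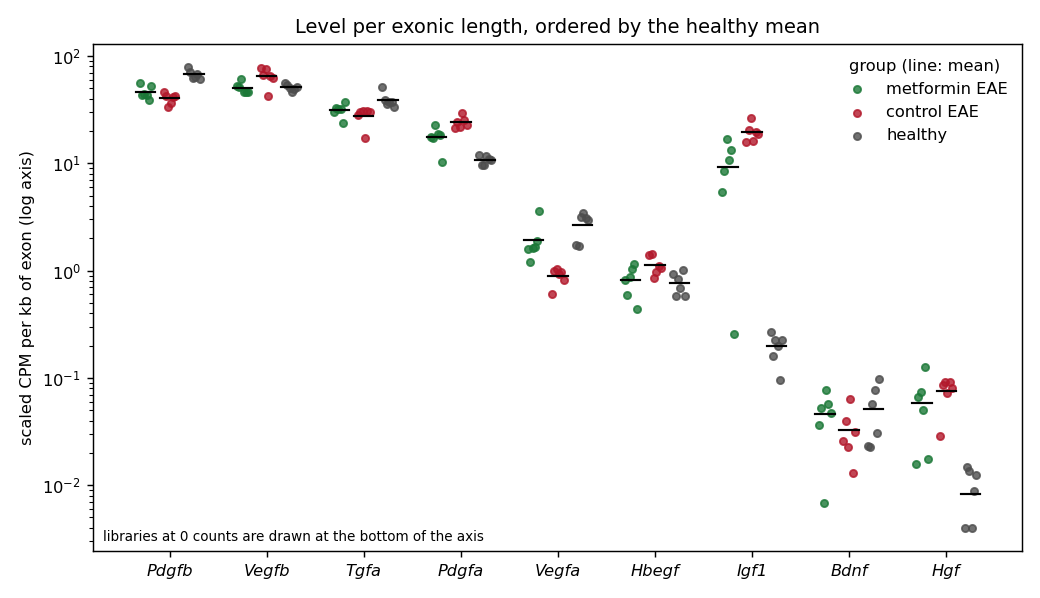
Scaled CPM per kb of exon (log axis) of the 9 growth factor genes in every library, with the group mean as a line, in order of the healthy mean. Pdgfb, Vegfb and Tgfa are at the top in all 3 groups, and Igf1 spans from 0.0960 in a healthy library to 26.4 in a control EAE library.

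The genes whose pattern over the 18 libraries was most like each growth factor were found by the root mean square difference of centred log2 CPM among 9436 genes of at least 5 CPM, and smaller values mean a closer pattern. For Igf1 they were Spp1 (0.392), which encodes osteopontin, and Cdo1 (0.457), a cysteine dioxygenase. Spp1 averaged 5285, 9958 and 135 scaled CPM in metformin EAE, control EAE and healthy libraries. For Vegfa they were Tjp1 (0.225), a tight junction scaffold, and Slc1a2 (0.226), the glutamate transporter of astrocytes, which averaged 105, 56.3 and 159 scaled CPM in the same order of groups.

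Pdgfa was closest to Galk2 (0.131) and Atp6v1d (0.140), a subunit of the proton pump of lysosomes. Pdgfb was closest to Pdzd4 (0.0928) and Cxxc5 (0.0955), Vegfb to Map1lc3b (0.0990), an autophagosome protein, and Sdf4 (0.101), and Tgfa to Snx19 (0.109). For Hbegf the closest were Ube2e2 (0.264) and Thop1 (0.264). The low counts of Hgf and Bdnf left loose matches: Sh3bgrl (0.743) and Gk (0.744) for Hgf, and the neuronal genes Ptprd (0.652) and Snap91 (0.660) for Bdnf.

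Related genes fell into 5 lists with 72 tested genes in all. In control EAE against healthy, 44 of the 72 were called, where 62.4% of all genes tested were called. Of these, 32 were higher and 12 lower, and with library totals alone 24 were higher and 21 lower. In metformin EAE against control EAE, 16 of the 72 were called, where 24.6% of all genes tested were called. Of these, 6 were higher and 10 lower, and with library totals alone the balance turned to 15 higher and 4 lower.

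Among related ligands of the same families, 8 of 17 counted genes passed the filter. In control EAE against healthy, 3 rose, 2 fell and 3 were not called (62.5% called, where the share of all genes tested was 62.4%), with a median log2 change of -0.13 beside -0.003 over all genes tested. Nrg4, an ErbB4 ligand, was 2.41-fold higher (adjusted p = 1.85e-06) and Igf2 10.48-fold higher (adjusted p = 3.02e-05), at 454 ± 287 scaled CPM in control EAE and 43.3 ± 24.7 in healthy libraries. Nrg1 fell 3.15-fold to 0.370 ± 0.0777 scaled CPM in control EAE, against 1.18 ± 0.221 in healthy libraries (adjusted p = 4.71e-05). Pdgfc (log2 0.76, adjusted p = 0.0228) and Nrg2 (log2 -0.90, adjusted p = 0.0347) were named after their values were seen. Their calls were lost when single libraries were left out (adjusted p up to 0.0629 for Pdgfc and 0.0989 for Nrg2). Which cells the RNA of these related ligands came from was not tested.

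Nrg1 was the 1 related ligand that rose in metformin EAE against control EAE (2.30-fold, adjusted p = 0.00583) and Pgf, a placental growth factor that binds Flt1, the 1 that fell (log2 -0.71, adjusted p = 0.029). The Pgf call was lost without control EAE replicate 10 (adjusted p = 0.0752) and 4 other single libraries. Igf2 averaged 182 ± 112 scaled CPM in metformin EAE and 454 ± 287 in control EAE libraries and was not called (log2 -1.32 ± 0.48, adjusted p = 0.0553), although the Wald test of DESeq2 (adjusted p = 0.0358) and 3 of 18 fits that left out a library (adjusted p = 0.0322 without metformin EAE replicate 21) did call it. Nrg4 and Igf2 rose and Pgf fell in metformin EAE against healthy, and the Pgf call (adjusted p = 0.0247) was lost in 4 of 18 fits that left out a library (adjusted p up to 0.0698).

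Receptors and co-receptors had 17 of 18 genes tested. In control EAE against healthy, 8 rose, 4 fell and 5 were not called (70.6% called, beside 62.4% of all genes), with a median log2 change of 0.66. Nrp1, a co-receptor of Vegfa, was 2.68-fold higher (adjusted p = 4.05e-07), Cd9, a membrane partner of the Hbegf precursor, 3.91-fold higher (adjusted p = 5.67e-07), and Igf2r, which clears Igf2, 14.2-fold higher (adjusted p = 4.52e-06). The 4 that fell were Ntrk2, Sort1, Insr and Erbb3, of which Ntrk2 is the Bdnf receptor and Sort1 binds its precursor. These 4 were named after their values were seen.

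Of the receptors of the 9 growth factors, 8 are given here, picked after values were seen. Flt1 averaged 84.6 ± 34.03 scaled CPM in control EAE and 7.69 ± 3.35 scaled CPM in healthy libraries (log2 3.46 ± 0.49, adjusted p = 1.44e-05). Pdgfra averaged 12.7 ± 2.32 in control EAE and 5.02 ± 1.04 in healthy libraries (log2 1.34 ± 0.20, adjusted p = 1.06e-05), and Pdgfrb 16.9 ± 4.59 and 4.29 ± 1.86 in the same groups (log2 1.98 ± 0.30, adjusted p = 1.76e-05). Ntrk2 was 1.51-fold lower in control EAE (adjusted p = 0.000239). Met (log2 0.60 ± 0.48, adjusted p = 0.285), Egfr, the receptor of Hbegf and Tgfa (log2 -0.14 ± 0.44, adjusted p = 0.796), and Kdr, a receptor of Vegfa (log2 0.06 ± 0.17, adjusted p = 0.775), were not called. Igf1r was not called either (log2 -0.22 ± 0.17, adjusted p = 0.275), but it was with library totals alone (log2 -0.65, adjusted p = 0.00185) and without control EAE replicate 2 (log2 -0.37, adjusted p = 0.0452). None of these 8 was called in metformin EAE against control EAE, where Pdgfra (log2 -0.52, adjusted p = 0.0562) and Pdgfrb (log2 -0.78, adjusted p = 0.0559) were closest to the threshold. The Wald test of DESeq2 called both (adjusted p = 0.038 for Pdgfra and 0.0254 for Pdgfrb), as did edgeR without metformin EAE replicate 21 (adjusted p = 0.0125 and 0.036). Pdgfra was also called without control EAE replicate 10 (adjusted p = 0.0439), and Pdgfrb without healthy replicates 3 and 4 (adjusted p = 0.0416), with only the compared groups in the fit (adjusted p = 0.0492) and with at least 1 CPM in 6 libraries (adjusted p = 0.0495).

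Pdgfra, Flt1 and Pdgfrb are also markers of oligodendrocyte precursors, endothelial cells and mural cells, and each is in the marker list of its cell type summed here. The summed mural cell and fibroblast markers were 39.6 to 520 scaled CPM in metformin EAE libraries (237 to 520 without replicate 22), 371 to 830 in control EAE libraries and 16.8 to 93.1 in healthy libraries. Endothelial sums were 31.3 to 113 (68.1 to 113 without replicate 22), 64.0 to 148 and 38.5 to 53.3, with Cldn5 at 0 throughout. Precursor sums were 58.6 to 90.8, 77.1 to 155 and 69.3 to 77.4, both in metformin EAE, control EAE and healthy libraries. These sums include the receptors themselves: Flt1 alone averaged 84.6 scaled CPM in control EAE and 7.69 in healthy libraries. In control EAE against healthy, endothelial markers had 3 of 7 called higher and 3 lower, and precursor markers 2 of 5 higher and 3 lower. Mural cell and fibroblast markers had 6 of 9 higher and 1 lower, where 62.4% of all genes tested were called. The part of these cells in the receptor results was not tested.

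Of the receptors, 2 rose, 1 fell and 14 were not called in metformin EAE against control EAE (17.6% called, beside 24.6% of all genes), and without replicate 22 only Insr was called. Insr, the insulin receptor, was 1.46-fold higher (adjusted p = 0.00391), at 19.8 ± 1.23 scaled CPM in metformin EAE and 13.5 ± 2.91 in control EAE libraries. Sort1 was 1.49-fold higher (adjusted p = 0.0211), a call lost without replicate 22 (adjusted p = 0.0595). Erbb2 was 2.33-fold lower (adjusted p = 0.0362), and this call too was lost without that library (adjusted p = 0.0783). Metformin EAE against healthy, with 36.6% of all genes tested called, had 8 of 17 receptors higher and 2 lower, Ntrk2 and Sort1. The Sort1 call (adjusted p = 0.0427) was lost in 14 of 18 fits that left out a library (adjusted p up to 0.104) and without healthy replicates 3 and 4 (adjusted p = 0.145). Met, among the 8 (adjusted p = 0.0448), was lost in 12 of 18 (adjusted p up to 0.112) and without healthy replicates 3 and 4 (adjusted p = 0.0809).

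Among IGF binding proteins and their modulators, 10 of 13 genes were tested. In control EAE against healthy, 4 rose, 1 fell and 5 were not called (50% called, beside 62.4% of all genes), with a median of 0.35. Igfbp5 was 12.99-fold higher (adjusted p = 1.17e-05) and Igfbp7 8.30-fold higher (adjusted p = 9.04e-06), while Igfbp4 was 2.55-fold lower (adjusted p = 3.21e-05). Igfbp3 and Igfbp6, named after their values were seen, were 3.03-fold and 3.996-fold higher. In metformin EAE against control EAE, none rose and 3 fell (30% called, beside 24.6% of all genes), with a median of -0.42 beside 0.01 over all genes. Igfbp2 was 2.22-fold lower (adjusted p = 0.0179), Igfbp3 2.0-fold lower (adjusted p = 0.0199) and Igfbp6 2.33-fold lower (adjusted p = 0.036). The Igfbp3 call was lost without control EAE replicate 9 (adjusted p = 0.0517), and the Igfbp6 change without control EAE replicate 10 was -0.65 in place of -1.22 on the log2 scale (adjusted p = 0.127). The Igfbp6 call was also lost without metformin EAE replicate 22 (adjusted p = 0.0708), and with library totals alone both Igfbp3 (adjusted p = 0.0524) and Igfbp6 (adjusted p = 0.066) were lost. Metformin EAE against healthy, with 36.6% of all genes tested called, had 2 of 10 higher, Igfbp5 and Igfbp7, and 2 lower. These were Igfbp4 and Htra1, Htra1 being named after its values were seen.

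Proteases and inhibitors that process the ligands had 19 of 22 genes tested, of which 9 rose, 3 fell and 7 were not called in control EAE against healthy (63.2% called, beside 62.4% of all genes, with a median log2 change of 0.59). The 9 include Mmp3, which was at 0 in every healthy library, so that it passed the filter on low counts only through EAE libraries. With library totals alone, 6 rose and 7 fell. Rhbdf2, which carries Adam17 to the cell surface, was 2.97-fold higher (adjusted p = 2.92e-07). St14 and Plau, serine proteases that can activate the Hgf precursor, were 3.68-fold (adjusted p = 1.29e-06) and 6.24-fold higher (adjusted p = 2.75e-06). The 3 that fell, named after their values were seen, were Pcsk6, Rhbdf1 and Mmp9, and the Mmp9 call was lost in 10 of 18 fits that left out a library (adjusted p up to 0.123).

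Of these 19 genes, 2 rose, 1 fell and 16 were not called in metformin EAE against control EAE (15.8% called, beside 24.6%), and with library totals alone 7 rose and 1 fell. Timp3, an inhibitor of Adam17, was 1.75-fold lower (adjusted p = 0.00123), at 22.4 ± 3.01 scaled CPM in metformin EAE and 39.2 ± 4.27 in control EAE libraries. Spint1, an inhibitor of the Hgf-activating proteases, was 1.47-fold higher (adjusted p = 0.00508) and Adam10, a sheddase, 1.41-fold higher (adjusted p = 0.00932). Metformin EAE against healthy, with 36.6% of all genes tested called, had 10 of 19 higher and 2 lower.

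Of the 18 genes of the hypoxia-inducible factor pathway, to which Vegfa belongs as a target, 8 rose, 2 fell and 8 were not called in control EAE against healthy (55.6% called, beside 62.4% of all genes, with a median log2 change of 0.30). With library totals alone, 5 rose and 5 fell. Hif1a was 3.28-fold higher (adjusted p = 6.95e-06), Car9, a carbonic anhydrase induced in hypoxia, 7.53-fold higher (adjusted p = 6.12e-07) and Bnip3, a mitophagy receptor, 4.08-fold higher (adjusted p = 5.55e-06). The 2 that fell were Arnt, the partner of Hif1a (log2 -0.26), and Egln1, a prolyl hydroxylase that marks it for removal (log2 -0.30), both named after their values were seen. The Arnt call was lost without healthy replicates 3 and 4 (log2 -0.20, adjusted p = 0.0578).

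In metformin EAE against control EAE, 1 of the 18 rose, 4 fell and 13 were not called (27.8% called, beside 24.6% of all genes, with a median log2 change of -0.10). With library totals alone, 5 rose and 2 fell. Pdk1, a kinase that limits pyruvate oxidation, was 1.28-fold higher (adjusted p = 0.00391). Ndrg1 was 1.51-fold lower (adjusted p = 0.000656) and Ddit4, an inhibitor of mTORC1, 1.93-fold lower (adjusted p = 0.0042). Egln2 and Adm were also lower and were named after their values were seen, and the Adm call was lost without control EAE replicate 10 (adjusted p = 0.0893). Both were lost with library totals alone (adjusted p = 0.245 for Egln2 and 0.125 for Adm). Metformin EAE against healthy, with 36.6% of all genes tested called, had 7 of 18 higher and 2 lower, Ndrg1 and Ddit4. The Ddit4 call (adjusted p = 0.0215) was lost without metformin EAE replicate 21 (adjusted p = 0.0566), without healthy replicate 3 (adjusted p = 0.0508) and without healthy replicates 3 and 4 (adjusted p = 0.0778).

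**Figure D5:**
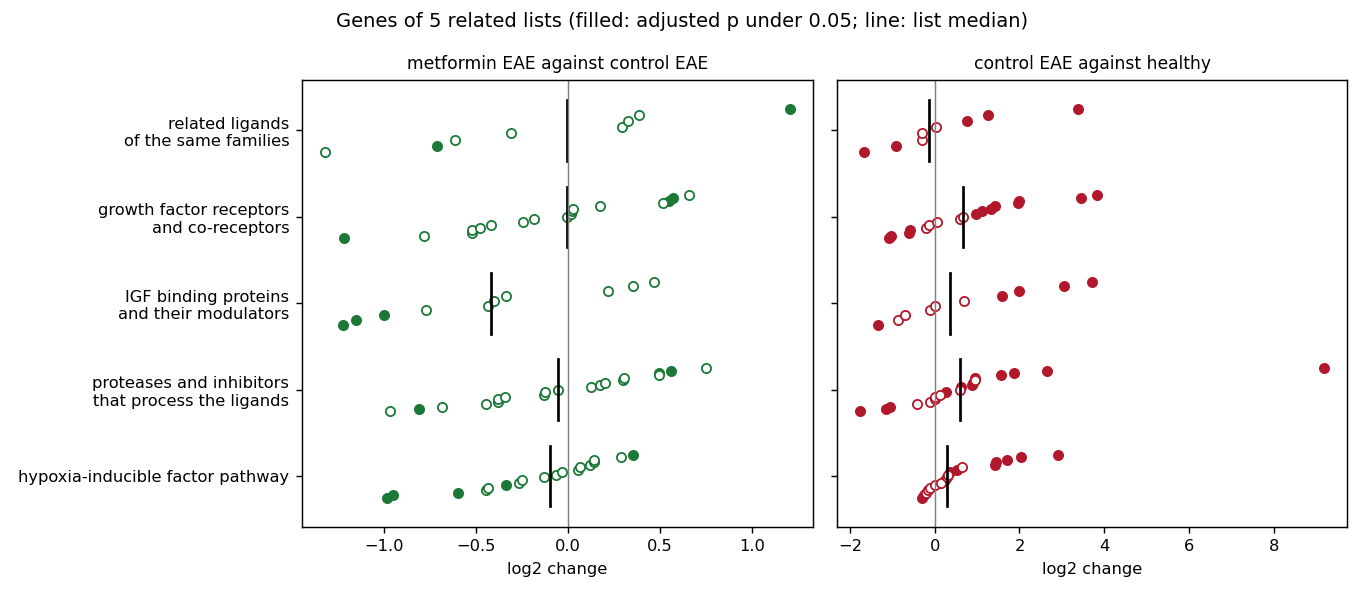
Log2 change of each tested gene of the 5 related lists in metformin EAE against control EAE (left) and control EAE against healthy (right), with filled points for adjusted p under 0.05 and a line at each list's median. The IGF binding proteins have the lowest median on the left (-0.42) and the receptors the highest on the right (0.66); the protease at the far right is Mmp3, which was at 0 in all healthy libraries, so its fitted value is no measure of fold.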

How the data were processed

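RNA of spinal cord microglia was measured in 18 libraries. Per the labels' protocols, the library kit was KAPA Stranded RNA-Seq, with mRNA enrichment. Per the submitters' processing notes, bcl2fastq 2.17, FastQC and Trimmomatic were used, with the build mm10. Which aligner, counting tool, strand setting and annotation were used is not given in the sources used here. The authors deposited 1 table of whole-number counts per Ensembl gene, not normalized, with 46.2 to 58.3 M counts (M, mega) per library. Replicates differed by more than sampling noise (lowest chi-square per degree of freedom 13.01). Counts of PCR-amplified reads are not independent molecules, so precision from counts covers counting error only.

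Symbols, positions and exon lengths came from GENCODE M21 (GRCm38, the assembly of mm10), which named 37607 genes. Groups and replicate numbers came from the sample titles and labels. The edgeR function filterByExpr, with a minimum count of 10 and a minimum total of 15, left 16740 genes, among them all 9 growth factor genes. All 18 libraries entered 1 edgeR 4.0.16 fit in R 4.3.3 (TMM, robust quasi-likelihood F test, group means without covariates), with Benjamini-Hochberg adjustment over all genes. The SE was taken as the absolute log2 change over the square root of F, and a 95% interval is 1.96 SE on each side. The fit was tested on simulated data in which few genes changed, evenly in both directions. That test cannot decide whether TMM scaling suits a comparison such as control EAE against healthy, where most genes tested were called. Promoter windows came from RefSeq (GRCm38.p6). Marker lists were summed in scaled CPM.

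The alternatives were DESeq2 size factors, library totals alone, the Wald test of DESeq2 1.42.0, no filter or at least 1 CPM in 6 libraries, only the compared groups, no robust estimation, leaving out each library, leaving out healthy replicates 3 and 4, a term for runs of title numbers (chosen after seeing the data), and the longest transcript as length. Summaries were made in Python 3.11.15 (pandas 2.3.3, numpy 2.4.6) and figures with matplotlib 3.10.9.

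The members and lists were chosen with earlier results of these data known. Named by rule were the 9 members, the 3 genes of each related list with the smallest p per comparison, the 2 genes most like each member, and marker genes. One gene that this rule names is not reported here. Any further gene is marked in the text as named after its values were seen.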

Additional observations from a re-analysis of the deposited data

Results flagged for a closer look

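A library far from the others of its group was looked for in 27 groups of 6 values, on log2(scaled CPM + 0.5), with Dixon's test at its 95% critical value. Chance flags about 1 in 20 groups, and 6 were found. In metformin EAE replicate 22, Igf1 was at 2.54 scaled CPM, against 53.1 to 167 in the other 5 libraries, and Pdgfa at 32.2, against 53.8 to 71.4. In control EAE replicate 1, Hgf was at 0.204 scaled CPM, against 0.520 to 0.660 in the others. In control EAE replicate 10, Vegfb was at 68.7 scaled CPM, against 99.98 to 124, and Tgfa at 112, against 183 to 199.7. In healthy replicate 3, Tgfa was at 332 scaled CPM, against 217 to 252.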

How the results depend on the processing

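No paired analysis was possible because no replicate number is shared between groups. The title numbers fall into 3 runs of 6 consecutive numbers with 2 libraries of every group each, which no label calls a batch. A term for the run, chosen after seeing the data, gave 5 calls among the 9 genes in metformin EAE against healthy in place of 4, with Vegfa gained (adjusted p = 0.0479), and left the 8 and 3 calls of the other comparisons in number. It also gained Igf2 in metformin EAE against control EAE (adjusted p = 0.0448) and lost Mmp9 in control EAE against healthy (adjusted p = 0.0577). Of the alternative values of the 9 genes, 232 of 240 kept their direction and side of the threshold in control EAE against healthy, 229 of 241 did in metformin EAE against control EAE, and 223 of 240 did in metformin EAE against healthy. With only the compared groups in the fit, metformin EAE against control EAE gave 1 call among the 9 genes (Vegfa) and 2703 over all genes, in place of 3 and 4111, and the cause was not tested. Leaving out 1 library gave 2 to 3 calls among the 9 in that comparison, 7 to 8 in control EAE against healthy and 4 to 6 in metformin EAE against healthy. With library totals alone, the sign turned for Vegfb in control EAE against healthy (-0.089), Igf1r in metformin EAE against control EAE (0.053) and Hbegf in metformin EAE against healthy (-0.13), and for Kdr in control EAE (-0.35) and metformin EAE (-0.10) against healthy. In metformin EAE against healthy, leaving out 1 library gave log2 changes of -0.075 to 0.014 for Vegfb, -0.036 to 0.21 for Hbegf and -0.35 to 0.13 for Bdnf, so these 3 turned sign near 0, and Vegfb was at 0.039 without healthy replicates 3 and 4. Egfr and Kdr, never called, also turned sign when 1 library was left out: from -0.35 to 0.13 and from -0.056 to 0.16 in control EAE against healthy, from -0.18 to 0.24 and from -0.017 to 0.13 in metformin EAE against control EAE, and from -0.32 to 0.15 and from -0.032 to 0.19 in metformin EAE against healthy. With the longest transcript as length, 21 of 27 levels per kb moved by more than 1 SD. Hgf and Bdnf, at 0 to 41 counts, are limited by depth.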
